A study of Mus musculus with 3 samples.

Results

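The nuclear genes for subunits of respiratory complexes II to V were followed through single-cell RNA sequencing of mouse retina. The set held the genes whose symbols begin with Cox4 to Cox8, Uqcr or Atp5, together with Sdha, Sdhb, Sdhc, Sdhd and Cycs, and 47 of the 18545 genes in the matrix met this rule. Of these, 4 encode complex II, 8 complex III, 1 cytochrome c, 17 complex IV and 17 complex V. They held 1289531 unique molecular identifiers (UMIs), each standing for 1 captured transcript. The rule used names and no measured value. Cox7a2l matches by name but encodes a supercomplex assembly factor, and 2 known subunits with other names, Cyc1 of complex III and Ndufa4 of complex IV, are given beside the set.

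There were 3 groups, each of C57BL/6J mice aged 8 weeks and kept in darkness since birth. WT mice carry no mutation. Both rd10 groups carry a single-base change in Pde6b, which encodes part of the phosphodiesterase of rods, and lose first rods and then cones. WT and rd10-vehicle mice ate the base chow. The rd10-TMB mice ate chow with 3 drugs, of which tamsulosin and metoprolol block alpha-1 and beta-1 adrenergic receptors and bromocriptine activates D2-like dopamine receptors. Each group was 1 library made from pooled retinas, of 4 mice per the labels and of fewer per the text of the study for rd10. The rd10 pools were female and the WT pool held both sexes, so a comparison with WT is also one between sexes in part. As an alternative the ratio was also taken against the WT cells with an Xist UMI and none of a Y-linked gene. Whether an Xist UMI is seen also depends on the UMIs of a cell, so this choice is not one of sex alone. Without replicates no test was possible. Intervals are exact 95% intervals that cover counting error only, so each comparison is one of libraries and not of conditions. Where 3 values follow each other they stand in the order WT, rd10-vehicle, rd10-TMB.

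The respiratory chain passes electrons from NADH and succinate to oxygen. Complex II oxidises succinate, complex III hands the electrons to cytochrome c, and complex IV reduces oxygen with them. Complexes III and IV pump protons, and complex V, the ATP synthase, lets the protons back to make ATP. Complex II is encoded wholly in the nucleus, whereas complexes III to V also need mitochondrially encoded subunits. Retinal neurons, photoreceptors above all, have a high demand for ATP, and Müller glia (MG), the radial support cells of the retina, are known for their glycolysis. The study itself named oxidative phosphorylation genes among those higher with TMB in these same libraries, so the direction below is not independent evidence of that.

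The libraries held 4478 (WT), 5952 (rd10-vehicle) and 4812 (rd10-TMB) cells, with medians of 3509.5, 4811.5 and 4772.5 UMIs per cell. Clusters are the authors' and carry numbers, and names ending in "-like" were given from marker genes. Cluster 0 was MG-like (14 of 14 markers), cluster 1 rod-like (14 of 14), cluster 2 rod bipolar-like (10 of 10) and cluster 4 cone-like (12 of 12). These and cluster 3 are the 5 main clusters. Cluster 3 passed 10 of 13 ON cone bipolar markers with none of them among its 10 leading genes, so it is called by its number. Cluster 10 carried ON cone bipolar as well as amacrine markers and also keeps its number. Rod RNA was present outside rods in each library. In the rod bipolar-like cells the 14 rod markers summed to 1749, 1203 and 1629 CPM, where CPM are UMIs scaled to 1000000 UMIs of the cluster in that library. The part of such stray RNA in the results was not tested.

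Promoters are shown for a few of these genes, since the class is known for shared regulators and 3 isoform genes were found mostly in a few clusters. RefSeq windows on GRCm38.p6, from 250 bases before to 50 after the transcription start, were matched for 37 of the 47 genes. Capitals mark a match, on either strand, to the core site of NRF1 (GCGCATGCG), an activator of nuclear respiratory genes, or of ETS factors such as GABPA (CCGGAAG). The windows below are those of Uqcr11 (chr10:80406772-80407071, minus strand) and Atp5l (chr9:44920693-44920992, minus strand), small subunits of complexes III and V that carry both sites. Those of Cox6b2 (chr7:4753045-4753344, minus strand) and Cox8b (chr7:140900397-140900696, minus strand), isoform genes of complex IV, follow.
Uqcr11: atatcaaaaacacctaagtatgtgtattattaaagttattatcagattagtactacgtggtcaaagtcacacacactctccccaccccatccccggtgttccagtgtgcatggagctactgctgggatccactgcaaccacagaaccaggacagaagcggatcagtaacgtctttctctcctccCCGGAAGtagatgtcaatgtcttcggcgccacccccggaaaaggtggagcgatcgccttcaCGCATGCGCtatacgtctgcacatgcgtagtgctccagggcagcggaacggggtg
Atp5l: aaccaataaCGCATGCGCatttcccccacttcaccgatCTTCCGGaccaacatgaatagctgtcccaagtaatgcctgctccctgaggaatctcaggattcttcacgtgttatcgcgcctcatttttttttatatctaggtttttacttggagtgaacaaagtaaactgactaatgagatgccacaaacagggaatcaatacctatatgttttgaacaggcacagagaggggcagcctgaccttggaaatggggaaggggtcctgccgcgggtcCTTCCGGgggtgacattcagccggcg
Cox6b2: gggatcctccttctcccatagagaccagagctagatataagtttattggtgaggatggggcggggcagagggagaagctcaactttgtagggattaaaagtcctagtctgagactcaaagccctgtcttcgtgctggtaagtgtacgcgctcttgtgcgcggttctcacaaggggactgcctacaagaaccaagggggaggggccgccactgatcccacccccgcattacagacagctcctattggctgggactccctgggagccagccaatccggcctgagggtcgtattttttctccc
Cox8b: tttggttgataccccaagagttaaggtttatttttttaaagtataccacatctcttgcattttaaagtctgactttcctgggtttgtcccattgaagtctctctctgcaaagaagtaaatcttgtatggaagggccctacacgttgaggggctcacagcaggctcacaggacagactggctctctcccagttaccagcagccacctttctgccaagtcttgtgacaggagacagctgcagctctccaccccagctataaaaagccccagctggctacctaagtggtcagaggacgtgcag

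The NRF1 letters stood in the windows of 7 of the 37 subunit genes (18.9%) and of 420 of 13515 genes of the matrix with a window (3.11%). The ETS letters stood in 12 (32.4%) and 2081 (15.4%), and those of YY1 (AAGATGGCG), another activator, in 1 (2.70%) and 348 (2.57%). The genes with the NRF1 letters were Atp5k, Cox6a1, Cycs, Atp5l, Uqcrc1, Uqcr11 and Atp5g2. They did not share a direction with TMB, as Uqcr11 was called higher in 3 and Atp5l in 2 of the 5 main clusters, and Uqcrc1 was below its rd10-vehicle level in 4 of them. Cox8b had 2 CpG dinucleotides in its window and Cox6b2 had 10, beside a median of 19 among the subunit genes. A match of letters is a description and not a site of binding.

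How much of each cell type's RNA the subunits took was examined first. Rod bipolar-like cells gave the largest share of their UMIs to the 47 genes among the main clusters, and MG-like cells the smallest. In rod bipolar-like cells they summed to 23365, 22461 and 24885 CPM. In MG-like cells the sums were 11826, 11916 and 12962 CPM. The ratio of the first to the second was 1.98 (lower bound 1.95) for WT, 1.88 (1.87 to 1.90) for rd10-vehicle, while rd10-TMB had 1.92 (1.90 to 1.94). Between them stood cone-like cells with 20172, 20090.1 and 22197 CPM, cluster 3 with 16525, 19419.8 and 21092 CPM and rod-like cells with 12569, 13589 and 15091 CPM. Endothelial-like cells (cluster 11), with 12126, 10362 and 10788 CPM, lay close to the MG-like cells, and their order changed between libraries.

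**Figure D1:**
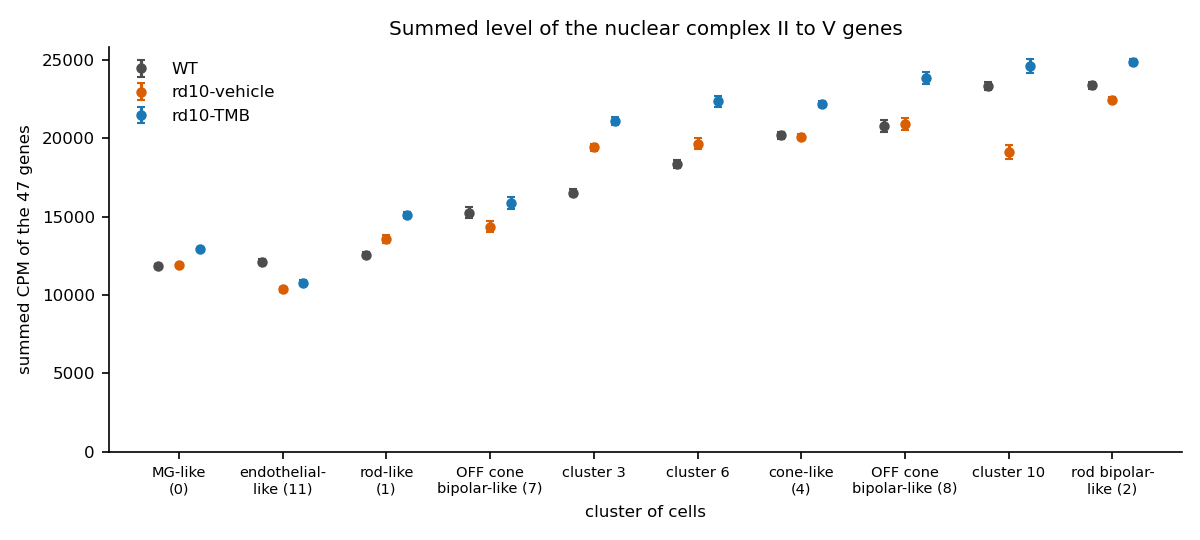
Summed level of the 47 subunit genes in CPM (vertical axis, from 0) for the 10 clusters with at least 50 cells in each library (horizontal axis), with 1 point per library and bars for exact Poisson 95% intervals. The MG-like, endothelial-like and rod-like sums lie between 10362 and 15091 CPM and the rod bipolar-like sums between 22461 and 24885 CPM, and the rd10-TMB point is above the rd10-vehicle point in each cluster.

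All complexes shared in the difference between MG-like and rod bipolar-like cells, but not equally. From MG-like to rod bipolar-like cells of WT, complex II went from 342 to 508 CPM, complex III from 1745 to 3024 CPM, complex IV from 4885 to 8782 CPM and complex V from 4806 to 10871 CPM. Rod-like cells differed, as their complex IV sum was below that of MG-like cells in WT (4231 CPM). It was also below in rd10-vehicle (4465 beside 4665 CPM) but not in rd10-TMB (5268 beside 5238 CPM). The complex II genes were comparatively even. Sdhb, the iron-sulfur subunit, had its highest mean level of the 10 clusters in MG-like cells (123 CPM) and its lowest in rod-like cells (64.4 CPM). Sdhc, a membrane anchor, ranged 1.63-fold between clusters, Sdhd, the other anchor, 1.82-fold and Sdha, the flavoprotein, 2.12-fold. Cycs, cytochrome c itself, ranged 3.77-fold, from 53.1 CPM in MG-like to 200.2 CPM in cone-like cells. These ranges run over the means of 3 libraries, which describe the clusters and are not replicates.

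The most abundant subunit genes were Cox8a (1069 CPM over all cells), Cox4i1 (1018), Atp5h (686), Cox6c (611), Cox7c (585), Atp5b (557), Uqcrh (483), Atp5j (478), Atp5l (466) and Atp5g2 (446). Counts are of transcript ends, so they are not scaled by length. Cox8a, the common form of subunit 8 of complex IV, had means that ranged 4.37-fold over the 10 clusters, from 529.8 CPM in endothelial-like to 2315 CPM in cone-like cells. Atp5mpl, a small proteolipid of the ATP synthase, had a wider range of 11.3-fold. In rod bipolar-like cells it had 1231, 1429.8 and 1469.5 CPM. In MG-like cells it had 135, 128 and 142 CPM, in cone-like cells 347, 310.3 and 361 CPM, and in endothelial-like cells 170.5, 97.5 and 96.2 CPM. No library of these 3 clusters came within the range of the rod bipolar-like cells.

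The ring of the ATP synthase is built of subunit c, which 3 genes, Atp5g1, Atp5g2 and Atp5g3, encode as the same mature peptide. Their mixture differed between cell types. Atp5g2 gave 49.6% of the subunit c UMIs in MG-like cells (Clopper-Pearson interval 49.0 to 50.1%) and 25.2% in cone-like cells (24.4 to 26.0%). Atp5g1 gave 27.0% in MG-like cells (26.5 to 27.4%), against 49.0% in cone-like cells (48.1 to 49.9%). Atp5g3 gave 40.7% in cluster 3 (39.5 to 41.8%) and 41.1% in cluster 10 (39.5 to 42.7%). These shares are over the UMIs of all 3 libraries.

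Complex IV has paired genes for several of its subunits, and 3 of the less common partners were found mostly in a few clusters. MG-like cells held much of the RNA of all genes too, with 3319917 of 18882951, 22198511 of 37002532 and 16777299 of 29192530 UMIs. Cox4i2 (chr2:152754173-152765037, plus strand), a form of subunit 4 tied to low oxygen, had 27075 UMIs, of which 94.0% lay in MG-like cells. In these cells it had 744, 567 and 619.6 CPM, beside 829, 843 and 891 CPM of its common partner Cox4i1, which overlaps Gm20388 on the same strand. Over all libraries it reached 511 CPM in pericyte-like cells (cluster 14), 196 CPM in astrocyte-like cells (cluster 12) and 167 CPM in endothelial-like cells. In the main neuronal clusters it stood between 3.02 CPM in cluster 2 and 7.35 CPM in cluster 3. With each cell thinned to 1000 UMIs, 49.1% of WT MG-like cells had a Cox4i2 UMI (44.8 to 53.5%), beside 0.419% of WT rod-like cells (0.114 to 1.07%). Before thinning these shares were 92.1% and 0.678%, at medians of 6300 and 1423 UMIs per cell, and thinning left out 3 and 226 cells.

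Cox6b2 (chr7:4751792-4753094, minus strand), known as the testis form of subunit 6B, also had most of its UMIs in MG-like cells, at a lower level. It did not follow Cox4i2 elsewhere, with 1 UMI in pericyte-like cells (4.29 CPM). Over all libraries it had 89.1 CPM in MG-like cells and 191 CPM in the small unnamed cluster 18. MG-like cells held 86.8% of its 4343 UMIs, with 140.1, 74.9 and 97.8 CPM. It supplied 28.4% of the subunit 6B UMIs in WT MG-like cells (26.2 to 30.7%), 18.1% for rd10-vehicle (17.4 to 19%), while rd10-TMB had 19.6% (18.7 to 20.4%). The rest came from Cox6b1. Rod bipolar-like cells had 4.53 CPM of Cox6b2 and endothelial-like cells 3.59 CPM over all libraries.

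Cox8b (chr7:140898945-140900446, minus strand), the heart and muscle form of subunit 8, was a gene of the cells of the retinal pigment epithelium (RPE) here. The RPE-like cluster 15, with 13, 35 and 16 cells, held 327 of its 388 UMIs. It had 1421 CPM there over all libraries (1271 to 1583). It was 48.3% of the subunit 8 UMIs for WT (38.9 to 57.7%), 44.7% for rd10-vehicle (40.2 to 49.4%), while rd10-TMB had 48.5% (39.6 to 57.4%), intervals that overlap. It was one of the 10 genes that led this cluster, though not one of the markers that named it. MG-like cells had 0.0709 CPM. The remaining partners gave 668 UMIs of Cox7a1, 60 of Cox6a2 and 23 of Cox7b2 in all cells. Cox7a1, the heart and muscle form of subunit 7A, had 511 of its UMIs in MG-like cells, at 14.5, 12.3 and 11.3 CPM. There it made up 5.06, 4.78 and 3.76% of the UMIs of Cox7a1 and Cox7a2. Over all libraries it had 23.6 CPM in the horizontal-like cluster 19 and 17.4 CPM in RPE-like cells, on 11 and 4 UMIs. In rod-like cells it had 6, 18 and 21 UMIs, at 3.34, 20.9 and 16.6 CPM, above the MG-like level in both rd10 libraries. There it made up 1.11% for WT (0.407 to 2.39%), 6.69% for rd10-vehicle (4.01 to 10.4%), while rd10-TMB had 4.38% (2.73 to 6.61%). MG markers in these rod-like cells summed to 627, 1323 and 1229.7 CPM, and their part in the result was not tested.

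**Figure D2:**
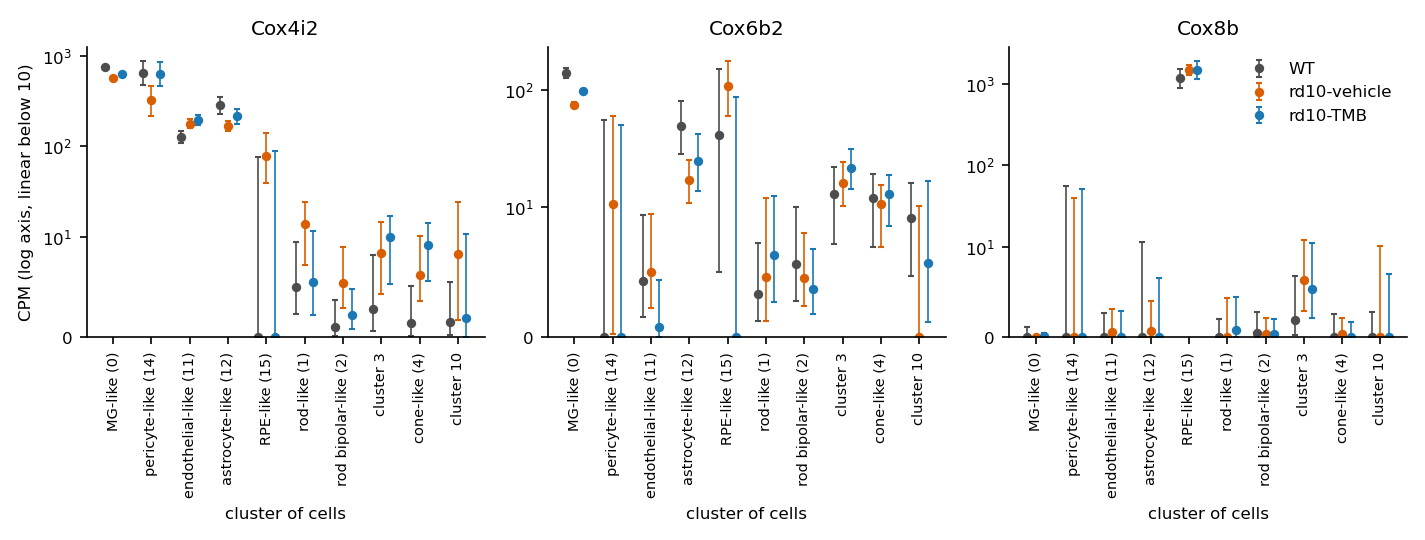
Levels of Cox4i2, Cox6b2 and Cox8b (CPM on a log axis that is linear below 10) in 10 clusters, 1 point per library with exact Poisson 95% intervals. Cox4i2 is at 567 to 744 CPM in MG-like cells and far lower in the neuronal clusters, and Cox8b is above 1000 CPM only in the RPE-like cluster 15 among the clusters drawn.

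The rd10-TMB and rd10-vehicle libraries were compared next, as the ratio of the first to the second within each cluster. Genes with at least 100 UMIs over both libraries were used, and a gene was called when the ratio was at least 1.2-fold with an interval that left out 1. The median subunit gene was above the median of all genes in each of the 5 main clusters, by a small amount. The medians on the log2 scale were 0.11 in MG-like cells (44 of the 47 genes had enough UMIs), 0.16 in rod-like (40), 0.13 in rod bipolar-like (41), 0.11 in cluster 3 (41) and 0.14 in cone-like cells (41). Over all genes tested they were -0.0229, 0.0308, -0.00771, -0.000486 and 0.0149 in clusters 0 to 4. Of the subunit genes tested, 30 of 44, 29 of 40, 36 of 41, 32 of 41 and 34 of 41 were above 0, beside 43.9, 55.6, 48.1, 49.9 and 53.0% of all genes. The genes that lacked enough UMIs in neurons were the rare isoforms, and in rod-like cells also Sdhd.

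In MG-like cells, 3 of 44 were called higher, beside 3.43% of all 11890 genes tested, and 0 were called lower, beside 6.39%. Among rod-like cells 11 of 40 were called higher (5.38% of all genes) and 1 lower (4.78%). For rod bipolar-like cells 10 of 41 were called higher (2.80% of all) and 0 lower (3.82%), in cluster 3 they were 3 of 41 (3.44%) and 0 (3.04%), and in cone-like cells 5 of 41 (4.51%) and 0 (4.02%). Of the 5 main clusters, rod-like and rod bipolar-like cells thus had the share of subunit genes called higher that was furthest above that of all genes.

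**Figure D3:**
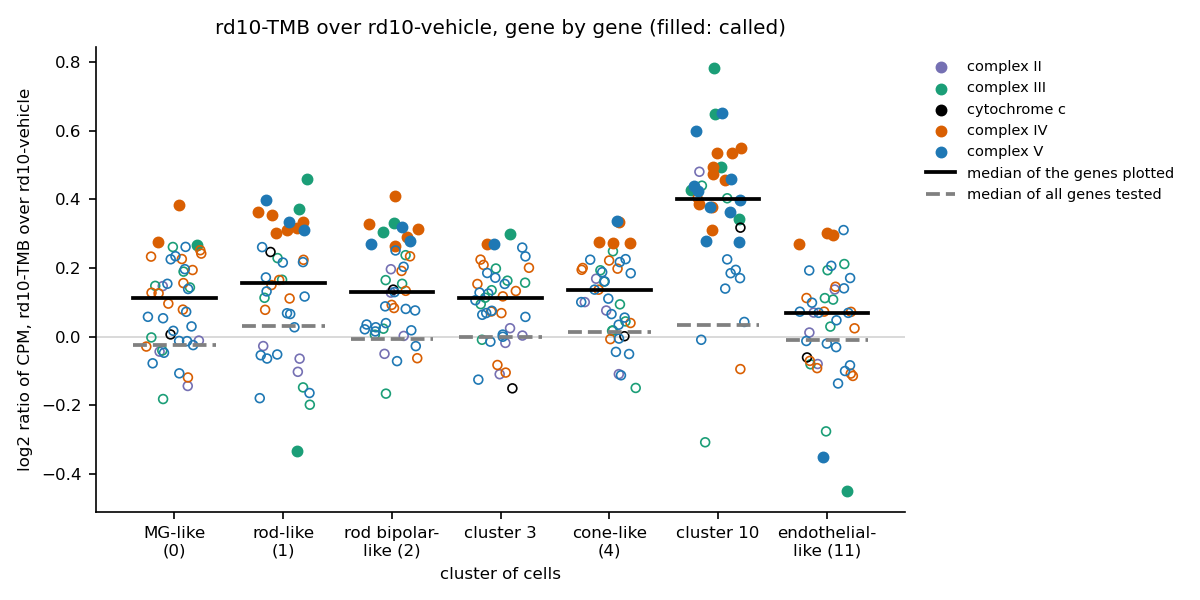
Log2 ratio of rd10-TMB over rd10-vehicle for each subunit gene with at least 100 UMIs (points, coloured by complex, filled when called) in 7 clusters, with the median of the points (solid line) and of all genes tested (dashed line). The solid line is above the dashed one in each cluster, by the most in cluster 10, where it is at 0.40.

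Among the 5 main clusters Cox7c was called higher with TMB in 4, and Uqcr11, Uqcrb, Atp5j2, Cox7a2 and Cox6c in 3 each. Cox7c, a small subunit of complex IV, had 448, 408 and 495 CPM in MG-like cells, which gives a log2 ratio of 0.28 (0.23 to 0.32) for TMB. In rod bipolar-like cells it had 1088, 964 and 1212 CPM and a log2 ratio of 0.33 (0.25 to 0.41). In cone-like cells it had 668, 645 and 780.0 CPM and a log2 ratio of 0.27 (0.18 to 0.37). The rd10-vehicle library was the lowest of the 3 in each of these clusters and rd10-TMB the highest.

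Uqcr11, a small subunit of complex III whose promoter is shown above, had 367, 342 and 411 CPM in MG-like cells (log2 ratio 0.27, 0.22 to 0.31). In rod-like cells it had 146, 129 and 177 CPM, the largest log2 ratio of any subunit gene there (0.46, 0.12 to 0.80). It had 385, 329.9 and 415 CPM in rod bipolar-like cells (0.33, 0.20 to 0.46). It too was lowest in rd10-vehicle each time.

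In rod-like cells Atp5l, subunit g of the ATP synthase, had 439, 442 and 582 CPM (log2 ratio 0.40, 0.22 to 0.58). Uqcrb, a complex III subunit, had 408, 373 and 483 CPM there (0.37, 0.17 to 0.57). Cox6b1, the common form of subunit 6B, led in rod bipolar-like cells with 515, 466 and 619 CPM (0.41, 0.30 to 0.52). Uqcrb led in cluster 3, where the level with TMB was the highest of the 3, at 437, 467 and 576 CPM (0.30, 0.15 to 0.45). Cox5b and Atp5j2, small subunits of complexes IV and V, followed there with log2 ratios of 0.27 and 0.27. The 14 rod markers in cluster 3 went from 3748 to 5031 CPM between the same libraries, and their part in the result was not tested. In cone-like cells Atp5md, an accessory subunit at the dimer of the ATP synthase, had 359, 325 and 410.5 CPM (0.34, 0.20 to 0.47). Cox6c, of complex IV, had 954, 841 and 1061 CPM there (0.34, 0.25 to 0.42).

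In MG-like cells the largest ratio belonged to Cox6b2, whose levels are given above (log2 ratio 0.38, 0.29 to 0.48). Its level with TMB lay between those of rd10-vehicle and WT. Its call held under each alternative tried for it, with ratios from 0.37 to 0.59. The calls of Cox7c and Uqcr11 in MG-like cells were lost when the 5% of cells with the most UMIs were left out, at 0.26 and 0.25.

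Uqcrc1 was the only subunit gene called lower in the 5 clusters. Uqcrc1, a core protein of complex III, had the lowest ratio of all subunit genes in MG-like cells, with 73.5, 80.2 and 70.7 CPM (-0.18, -0.29 to -0.075). It was also lowest in rod-like cells, with 142, 169.6 and 135 CPM (-0.33, -0.66 to -0.00552). That call was lost under 4 of the alternatives, among them the cells with at least 1000 genes (-0.21). In rod bipolar-like and cone-like cells Uqcrc1 was again the lowest, at -0.17 (-0.45 to 0.12) and -0.15 (-0.36 to 0.0596), intervals that include 0. It was above 0 in cluster 3 (0.16, -0.23 to 0.55). Atp5b, the catalytic beta subunit of the ATP synthase, was at -0.11 in MG-like cells and above 0 in the other 4, with 0.13, 0.0153, 0.13 and 0.0556 in clusters 1 to 4, and was called in 0 of the 5.

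The complex II genes, at most 4 in a cluster, were too few for a count of calls to be read against the share of all genes, and 0 were called. In MG-like cells Sdhb had 112, 134 and 122 CPM (log2 ratio -0.14, -0.23 to -0.062) and Sdha 118, 118 and 117 CPM (-0.0115, -0.10 to 0.0736). Sdhc had 65.7, 74.0 and 71.8 CPM (-0.0437, -0.15 to 0.0645) and Sdhd 45.8, 52.3 and 57.9 CPM (0.15, 0.0229 to 0.27). The medians of complexes II, III, IV and V in these cells were -0.0276, 0.15, 0.18 and 0.0537. In the other 4 main clusters the complex IV medians were 0.30, 0.23, 0.13 and 0.20, with 11 of 11, 10 of 11, 9 of 11 and 10 of 11 genes above 0. Cycs was called in 0 of the 5 clusters, with log2 ratios from -0.15 (-0.46 to 0.16) in cluster 3 to 0.25 (-0.12 to 0.62) in rod-like cells. The subunit c genes were near 0 in MG-like cells, with Atp5g1 at 0.0578 (-0.00143 to 0.12), Atp5g2 at 0.0537 (0.00986 to 0.10) and Atp5g3 at -0.0125 (-0.0766 to 0.0514).

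Across clusters, 40 subunit genes had enough UMIs in each of the 5, and 19 of them were above 0 in all 5, while 0 were below 0 in all. Of the 2917 genes of any kind with enough UMIs in each of the 5, 9.29% were above 0 in all 5 and 4.97% below, and among 365 of these under 1000 bases that encode neither these subunits nor ribosomal proteins the shares were 18.6% and 2.47%. All 5 ratios rest on the same pair of libraries, and the shares were not matched for UMIs. The 19 were Cox5b, Cox6b1, Cox6c, Cox7a2, Cox7b, Cox7c and Cox8a of complex IV, Uqcr11, Uqcrb, Uqcrh and Uqcrq of complex III, and Atp5c1, Atp5e, Atp5h, Atp5j, Atp5j2, Atp5l, Atp5md and Atp5mpl of complex V. The clusters of a library share its preparation and stray RNA, so they are not replicates of each other. Ndufa4, the complex IV subunit outside the name rule, was above 0 in all 5 as well, and was called in rod bipolar-like cells, with 2287, 1859.6 and 2234 CPM (0.26, 0.21 to 0.32). Cyc1, the cytochrome c1 of complex III, was called in 0 of the 5, with 0.11 (0.015 to 0.20) in MG-like cells.

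The ratio differed with transcript length. Among the subunit genes, those with a median GENCODE M21 transcript under 1000 bases, a limit chosen after the values were seen, had a median log2 ratio of 0.15 in MG-like cells (28 genes), and those of 1000 bases or more had -0.0023 (15 genes). For rod bipolar-like cells the medians were 0.19 (25 genes) and 0.0233 (15 genes), for cone-like cells 0.18 and 0.0556, for rod-like cells 0.17 and 0.0448, and for cluster 3 0.14 and 0.00599. Spearman's rho between length and ratio over subunit genes was -0.52 in MG-like cells (43 genes) and from -0.35 to -0.46 in the other 4 clusters (39 or 40 genes). Over all genes it was -0.024, -0.027, -0.14, -0.0102 and -0.0458 in clusters 0 to 4. Genes share libraries and depth, so these are descriptions. Genes under 1000 bases that encode neither these subunits nor ribosomal proteins had medians of 0.0119, 0.0344, 0.0624, 0.0184 and 0.0493 in clusters 0 to 4, below those of the short subunit genes in each case. In the smaller clusters other short genes were further above 0, with medians of 0.0854, 0.0418, 0.12 and 0.22 in clusters 6, 7, 8 and 10, where short subunit genes had 0.19, 0.13, 0.22 and 0.42. The part of length in the results was not tested.

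**Figure D4:**
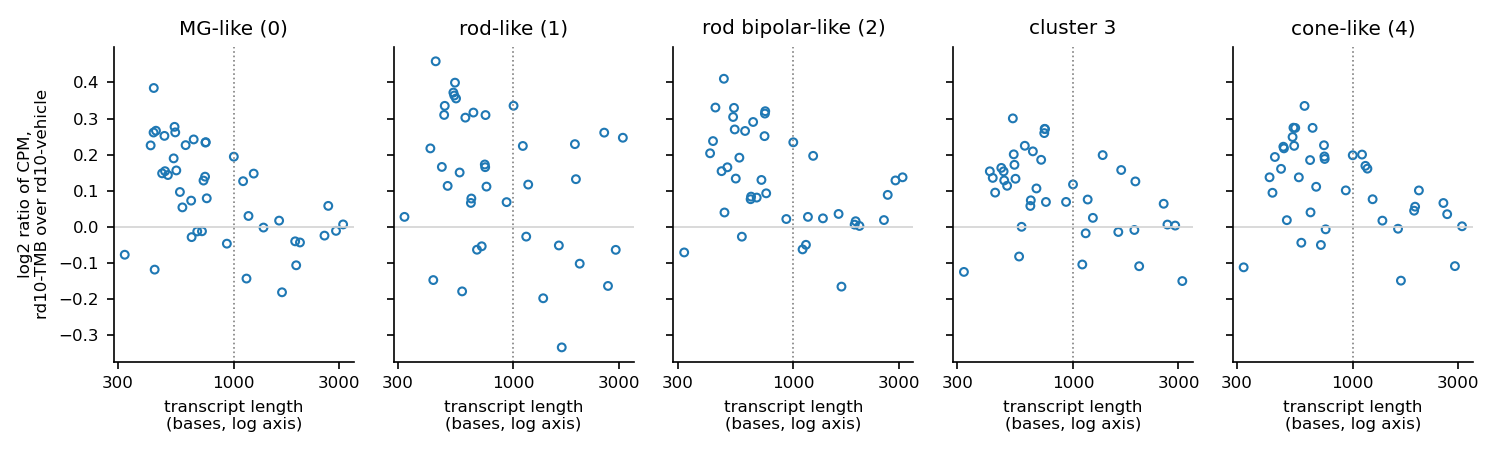
Log2 ratio of rd10-TMB over rd10-vehicle against median transcript length (bases, log axis) for the subunit genes tested in clusters 0 to 4, with a dotted line at 1000 bases. The points left of the line centre on medians of 0.14 to 0.19 and those right of it on medians of -0.0023 to 0.0556.

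The ribosomal protein genes, which are short and abundant too, had medians above 0 as well. Their median log2 ratio for TMB was 0.13 in MG-like cells (85 genes), 0.20 in rod-like (80), 0.0419 in rod bipolar-like (81), 0.0565 in cluster 3 (81) and 0.0888 in cone-like cells (81). Without ribosomal and mitochondrially encoded genes in the total, the subunit medians were 0.13, 0.17, 0.13, 0.12 and 0.14. The nuclear genes of complex I had medians of 0.13, 0.11, 0.17, 0.0776 and 0.11 in clusters 0 to 4. The mitochondrially encoded genes had medians of 0.0544, -0.0696, -0.082, 0.0406 and -0.00699.

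Genes that build or feed the complexes had medians near 0. Those of the assembly factors of complexes II to V were 0.0312, -0.00819, 0.0233, 0.0732 and -0.0155 in clusters 0 to 4. In MG-like cells 2 of 38 assembly factors were called higher, beside 3.43% of all genes, and 1 lower, beside 6.39%. These were Cmc1, a copper-binding factor of complex IV, with 23.5, 28.5 and 36.0 CPM, Fmc1, an ATP synthase factor, with 112, 98.2 and 121 CPM, and Atpaf2, another one, with 8.13, 12.4 and 9.60 CPM. Uqcc2, a complex III factor, was called higher in rod-like cells (99.0, 105 and 157 CPM), rod bipolar-like cells (373, 356 and 429 CPM) and cluster 3 (149, 183 and 225 CPM). Cox17 and Cox20, factors of complex IV, were called higher in cluster 3 with log2 ratios of 0.30 and 0.35. In clusters 1, 2 and 3, 5.38, 2.80 and 3.44% of all genes were called higher. The factors of these clusters were named for their calls and are no count of the list. The tricarboxylic acid cycle enzymes had a median of -0.0527 in MG-like cells, with 3 of 16 above 0, beside 43.9% of all genes, and 0 called. Of 14 regulators of mitochondrial biogenesis in MG-like cells, Ppargc1b, a coactivator, was called higher (2.11, 4.64 and 6.38 CPM), beside 3.43% of all genes. Pprc1, a related one, was called lower (3.61, 6.26 and 3.64 CPM), beside 6.39%. Both were at a few CPM.

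Cluster 10 had the widest differences with TMB. Of its 38 tested subunit genes, 24 were called higher, beside 13.7% of all genes, and 0 lower, beside 10.3%. The median was 0.40, beside 0.0343 for all genes. Other genes under 1000 bases stood above 0 in this cluster as well, with a median of 0.22, and 63 of 238 were called higher and 6 lower, while Spearman's rho between length and ratio was -0.46 over 1632 genes. Short subunit genes had a median of 0.42 (25 genes) and long ones 0.35 (12 genes). Uqcr10, a small complex III subunit, had 405, 276 and 475 CPM (log2 ratio 0.78, 0.44 to 1.13), and Atp5g1 had 403, 362 and 568 CPM (0.65, 0.35 to 0.96). The rd10-vehicle library held 107 cells of this cluster. The 13 amacrine markers summed to 3540.1, 746 and 1648 CPM there, with 13, 9 and 11 of them seen. The 13 ON cone bipolar markers summed to 7020, 12731.5 and 11578 CPM. The 14 MG markers summed to 2361, 1563 and 2137 CPM and the 14 rod markers to 1692, 1419 and 1841 CPM. The part of length and of these markers in the result was not tested. In endothelial-like cells 3 of 42 subunit genes were called higher, beside 4.42% of all genes, and 2 lower, beside 5.48%, with Cox7c at 390.4, 288 and 355 CPM (0.30, 0.12 to 0.49). The smaller clusters 6, 7 and 8 had medians of 0.17, 0.13 and 0.21, beside 0.00827, 0.0156 and 0.0327 for all genes. In them 87.5, 83.8 and 92.3% of the subunit genes tested were above 0, beside 51.3, 52.4 and 55.5% of all genes. From rd10-vehicle to rd10-TMB the 14 rod markers went from 1333 to 1767 CPM in cluster 6, from 3067 to 3619 CPM in cluster 7 and from 3160.3 to 3784 CPM in cluster 8, and their part in the result was not tested.

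How rd10 differed from WT without treatment was asked with the ratio of rd10-vehicle to WT. This ratio shares the rd10-vehicle library with the ratio above, so a low value in that library lowers one and raises the other. The subunits had no common direction across clusters. The medians were 0.0436 in MG-like (44 genes), 0.12 in rod-like (41), -0.0925 in rod bipolar-like (41), 0.23 in cluster 3 (41) and 0.0126 in cone-like cells (41), beside -0.0345, -0.054, 0.0134, 0.0153 and -0.0366 over all genes. Above 0 in all 5 clusters were 7 of 41 genes, beside 10.7% of the 3276 genes tested in each, and 0 were below 0 in all, beside 9.98%. Among 380 other genes under 1000 bases these shares were 20.8% and 1.84%.

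The ratio to WT was also set against length and the markers of other cells. Genes under 1000 bases that encode neither these subunits nor ribosomal proteins had medians of 0.0550, 0.14, 0.0678, 0.17 and 0.0583 in clusters 0 to 4, and short subunit genes 0.0221, 0.12, -0.12, 0.23 and -0.00518. The short subunit genes were thus above other short genes in cluster 3 but not in the other 4 clusters. Spearman's rho between length and ratio over all genes was -0.15, -0.33, -0.19, -0.39 and -0.24 in clusters 0 to 4, whereas over the subunit genes it was 0.46, -0.0295, 0.18, 0.0188 and 0.34. From WT to rd10-vehicle, the 14 MG markers went from 627 to 1323 CPM in rod-like cells, from 629 to 899 in rod bipolar-like cells, from 1268 to 1647 in cluster 3 and from 763 to 1428 in cone-like cells. The 13 amacrine markers went from 330.4 to 56.9 CPM, from 104 to 24.9, from 935 to 257 and from 129.8 to 48.7 in the same clusters. The part of length and of these markers in the results was not tested.

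In MG-like cells 2 of 44 were called higher, beside 12.8% of all genes, and 2 lower, beside 15.4%. The higher genes were Atp5b, the catalytic beta subunit, with 259, 335 and 311 CPM (log2 ratio 0.37, 0.27 to 0.47), and Atp5g1 with 189.8, 236 and 245 CPM (0.31, 0.19 to 0.43). The lower ones were both isoform genes. Cox6b2 had a ratio of -0.90 (-1.05 to -0.75) and Cox4i2 one of -0.39 (-0.45 to -0.33). Their partners were not called, with Cox6b1 at -0.0619 (-0.15 to 0.0282) and Cox4i1 at 0.0242 (-0.0336 to 0.0824). The Cox4i2 share of the subunit 4 UMIs was 47.3% for WT (45.9 to 48.7%), 40.2% for rd10-vehicle (39.7 to 40.8%), while rd10-TMB had 41.0% (40.4 to 41.6%). With cells thinned to 1000 UMIs, the Cox4i2 ratio was -0.13 and was not called, while that of Cox6b2 was -0.96 and kept its call.

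Among rod-like cells 7 of 41 were called higher, beside 9.63% of all genes, and 0 lower, beside 12.9%. Atp5o, the stalk subunit OSCP, had 257, 336 and 321 CPM (log2 ratio 0.39, 0.17 to 0.60), Uqcr10 had 185, 239 and 216 CPM (0.37, 0.11 to 0.63), and Atp5g3 had 269, 345 and 332 CPM (0.36, 0.15 to 0.57). The direction of the rod-like median turned to -0.13 among cells with at least 1000 genes. In cone-like cells 1 of 41 was called higher, beside 6.60%, and 1 lower, beside 9.12%. These were Uqcrfs1, the Rieske iron-sulfur protein of complex III, with 138, 166 and 168 CPM (0.27, 0.021 to 0.52), and Atp5k, subunit e of the ATP synthase, with 354, 285 and 263 CPM (-0.32, -0.48 to -0.15).

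For rod bipolar-like cells 0 of 41 were called higher, beside 6.61% of all genes, and 1 lower, beside 5.40%. The lower gene was Atp5md, with 615, 487 and 591 CPM (log2 ratio -0.34, -0.45 to -0.22). Uqcr11 (-0.22, -0.36 to -0.079) and Cox5a, of complex IV (-0.24, -0.37 to -0.12), were not called though their intervals lay below 0, as did those of 16 of the 41 genes in all, beside 7.65% of all genes. Intervals above 0 belonged to 4, beside 9.11%. These counts carry no fold limit and so depend on the UMIs of a gene, and genes of like UMIs were not set beside them. Ndufa4 was called lower (-0.30, -0.36 to -0.24). All 13 mitochondrially encoded genes were below 0 in these cells, with a median of -0.20. Cluster 3 went the other way among the subunits, with 10 of 41 called higher, beside 9.74% of all genes, and 0 lower, beside 10.9%. Cox4i1 had 1095, 1494 and 1566 CPM (0.45, 0.34 to 0.55) and Atp5g2 had 456, 609 and 609 CPM (0.42, 0.26 to 0.58). The 14 rod markers summed to 5309.6, 3748 and 5031 CPM in cluster 3, the amacrine and MG markers are given above, and their part in the result was not tested. Its median was 0.0882 with cells of at least 1000 genes, where 7 calls higher were left in the 5 clusters in place of 20, beside 9.09% of all ratios in place of 9.67%. It was 0.12 against the WT cells with an Xist UMI and none of a Y-linked gene, and 0.49 with the mean over cells.

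**Figure D5:**
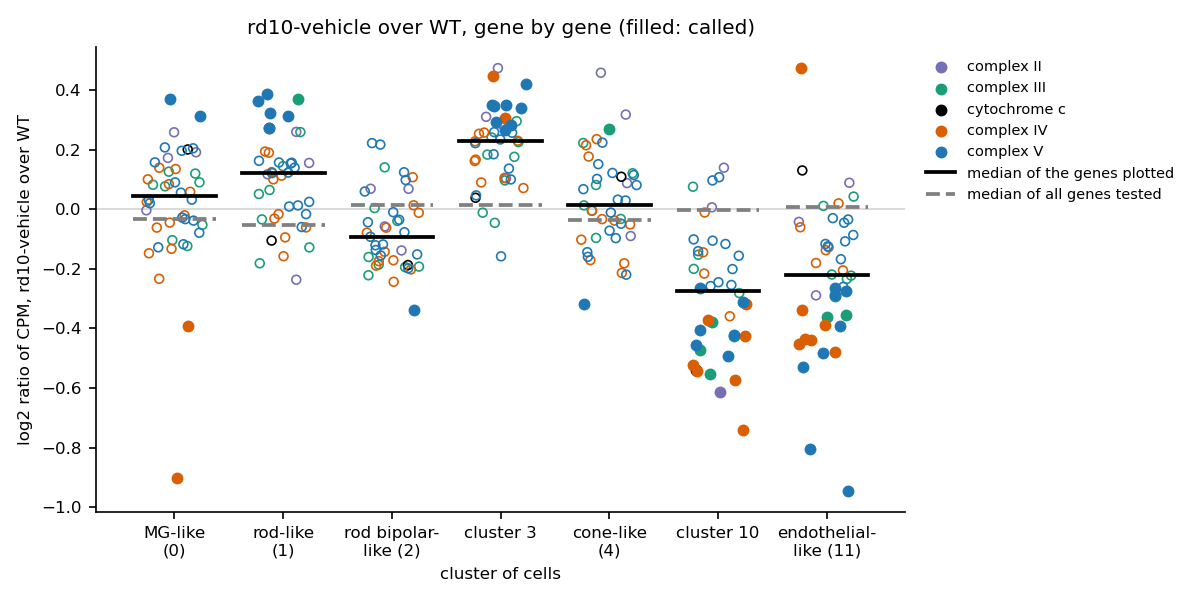
Log2 ratio of rd10-vehicle over WT for each subunit gene with at least 100 UMIs, drawn as in the plot of the TMB ratios. The median of the points is at 0.23 in cluster 3, at -0.27 in cluster 10 and at -0.22 in endothelial-like cells.

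The lowest medians were those of cluster 10 and of the endothelial-like cells. In cluster 10, 0 of 40 were called higher, beside 13.8% of all genes, and 19 lower, beside 14.2%, with a median of -0.27, beside -0.15 for other genes under 1000 bases (376 genes). Cox5a had 605, 362 and 473 CPM (log2 ratio -0.74, -1.02 to -0.47), Sdha 215, 141 and 196 CPM (-0.61, -1.07 to -0.18) and Cycs 205, 141 and 176 CPM (-0.54, with an interval below 0). The amacrine markers of this cluster were also lowest in rd10-vehicle and its ON cone bipolar markers lowest in WT, as given above. In endothelial-like cells 1 of 42 was called higher, beside 13.3%, and 17 lower, beside 14.6%, with a median of -0.22, beside -0.00278 for other short genes (510 genes). Against the WT cells with an Xist UMI and none of a Y-linked gene, the medians were -0.18 in cluster 10 and -0.12 in endothelial-like cells, and 10 of 37 and 8 of 42 genes were called lower, beside 10.9% and 9.82% of all genes. In endothelial-like cells the 14 rod markers summed to 792, 292 and 565 CPM, the 13 amacrine markers to 178, 26.0 and 42.9 CPM and the 12 pericyte markers to 6405, 9778 and 10081 CPM, and mitochondrially encoded genes took 5.44, 3.68 and 3.99% of the UMIs. Their part in the result was not tested. Atp5md had 181, 94.2 and 117 CPM (-0.94, -1.23 to -0.66) and Atp5mpl 170.5, 97.5 and 96.2 CPM (-0.81, -1.09 to -0.52). Ndufa4 was at -0.51 (-0.67 to -0.34) there, while the ribosomal protein genes had a median of 0.00509.

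The gene that was higher in endothelial-like cells was Cox4i2, with 127, 177 and 196 CPM (log2 ratio 0.47, 0.20 to 0.74), against its direction in MG-like cells. The 12 pericyte markers, whose sums are given above, were all seen in each library, and the MG markers summed to 2343, 2478 and 2817 CPM. Their part in the result was not tested. When only WT cells with an Xist UMI and none of a Y-linked gene were kept, the ratio was 0.0745 and was not called.

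Among the genes that build or feed the complexes, a few called ones are named for MG-like cells. There 12.8% of all genes were called higher and 15.4% lower. Mdh2, a malate dehydrogenase, had 64.5, 106 and 100.3 CPM (log2 ratio 0.71, 0.51 to 0.92). Pdhb, of pyruvate dehydrogenase, had 81.6, 61.3 and 65.1 CPM (-0.41, -0.60 to -0.22), and Tmem70, an ATP synthase assembly factor, 64.5, 45.2 and 47.3 CPM (-0.51, -0.73 to -0.29). Of 37 assembly factors in these cells 3 were called higher, namely Uqcc3, Cox19 and Atpaf2, beside 12.8% of all genes, and 1, Tmem70, lower, beside 15.4%. Both shares of the list were below those of all genes. Ppargc1a, the coactivator known to drive mitochondrial biogenesis, was called lower in MG-like (20.5, 15.4 and 17.7 CPM) and in cone-like cells (122, 90.8 and 78.7 CPM). Of all genes, 15.4 and 9.12% were called lower in the same clusters. In rod-like cells Slc25a4, an adenine nucleotide carrier, was called higher, beside 9.63% of all genes, with 613, 846 and 739 CPM (0.46, 0.33 to 0.60).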

How the data were processed

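Single-cell RNA sequencing of 3 pooled retina libraries was made with 10x v3 chemistry. The authors aligned reads to mm10 with Cell Ranger 6.0.1, combined matrices with Cumulus, removed doublets with Scrublet, corrected for library with Harmony and clustered in Seurat 3.2.2. Values in the deposited matrix are on a natural log scale, as ln(1 + UMIs per 10000 of the cell), and the deposited cell table gives the counts of UMIs and genes per cell, library and cluster. All 32620606 entries turned back into whole UMI counts within 0.001 UMI, and the sums matched the deposited totals in 15242 of 15242 cells. The cells kept by the authors, each with at least 500 genes, were all used, and 25 barcodes were shared by 2 libraries.

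UMIs were summed per cluster and library and scaled to CPM of the cluster total, since cells are not replicates. Sums carry exact Poisson intervals, shares Clopper-Pearson intervals and ratios exact conditional intervals, at 95%. PCR duplicates are collapsed by UMIs, and the intervals cover counting error only. A gene with more UMIs has a narrower interval and is more readily called, and shares of all genes were not matched for UMIs. No p-value was computed. The authors' tests over cells with MAST are not used.

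Clusters were named where at least 3 fixed markers had 2-fold the CPM of all other cells and at least 20 CPM, with 1 among the top 10 genes by fold. The names may not match the study's in each cluster. Named genes were the Sdh genes, Cycs, the isoform pairs, the subunit c genes, the 3 highest and 3 lowest ratios per main cluster and comparison, the 10 most abundant subunits, Cyc1, Ndufa4 and called assembly factors and regulators. Other genes were named after their values were seen. The genes and lists were chosen with earlier results of these data known.

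Positions are from GENCODE M21 (GRCm38), which gave 46 of the 47 genes by symbol. Promoters are from RefSeq on GRCm38.p6. Python 3.11.15, numpy 2.4.6 and scipy 1.17.1 were used, and the functions were tested on simulated counts. The alternatives were other scalings, the mean over cells, thinning to 1000 UMIs, 3 cell filters, other minimums, a 1.1-fold limit and the WT cells that carried Xist but no Y-linked RNA.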

Additional observations from a re-analysis of the deposited data

Results flagged for a closer look

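The ratio of rd10-vehicle to WT pointed in opposite directions in different clusters for 9 subunit genes that were called in each, and the differences between clusters were not tested. These were 9 of 42 subunit genes tested in at least 2 of 7 clusters (21.4%), beside 10.3% of 7643 genes of any kind. Among genes tested in all 7 clusters they were 8 of 40, a share near that of all 2262 such genes (17.7%). Cox4i2 had a log2 ratio of -0.39 in MG-like and 0.47 in endothelial-like cells. Atp5g3 was at 0.36 in rod-like cells and 0.35 in cluster 3, and at -0.49 in cluster 10 and -0.53 in endothelial-like cells. Atp5o was at 0.39 in rod-like cells and 0.35 in cluster 3, and at -0.27 in endothelial-like cells. Atp5k was at 0.31 in rod-like, -0.32 in cone-like and -0.39 in endothelial-like cells. Atp5g1 was at 0.31 in MG-like and -0.48 in endothelial-like cells, and Uqcr10 at 0.37 in rod-like cells and -0.55 in cluster 10. Atp5c1 was at 0.26 in cluster 3 and -0.46 in cluster 10, Atp5f1 at 0.28 and -0.31 in the same clusters, and Cox7c at 0.31 in cluster 3 and -0.44 in endothelial-like cells. These oppositions depended on the cells used. Of the 22 values, 19 lost their call under at least 1 of 8 alternatives, and for 0 of the 9 genes were opposite calls held under all 8. Cox4i2 was at -0.13 in MG-like cells with thinning and at 0.0745 in endothelial-like cells with the WT cells that carried an Xist but no Y-linked UMI, neither of them called. Atp5k turned to -0.22 in rod-like cells with at least 1000 genes, and Atp5o turned to 0.0809 in endothelial-like cells with thinning.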

How the results depend on the processing

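No paired analysis was possible because each group was 1 library. For rd10-TMB over rd10-vehicle, 50 of 50 alternative medians in the 5 main clusters were above 0 and above the median of all genes. Those that left the counting interval were, in MG-like cells, 0.13 with size factors, 0.13 without mitochondrial and ribosomal genes, 0.10 with a mitochondrial share of 10% or less and 0.13 with no minimum. In rod-like cells they were 0.11 with the mean over cells and 0.0844 with thinning. In rod bipolar-like cells they were 0.17 with thinning, 0.11 without the 5% of cells with the most UMIs and 0.0905 with no minimum. In cluster 3 the mean over cells gave 0.0436. In cone-like cells the mean over cells gave 0.0782, the mitochondrial limit 0.10 and leaving out the 5% 0.11. Calls higher over the 5 clusters went from 32 to 80 at 1.1-fold (38.6% of the ratios, beside 6.36% over all genes). The single call lower became 0 without mitochondrial and ribosomal genes or with a minimum of 400 UMIs, 2 with the mitochondrial limit and 3 at 1.1-fold (1.45% of the ratios, beside 7.32% over all genes).

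For rd10-vehicle over WT more values depended on the cells used. In MG-like cells the median was 0.0786 with size factors, 0.0619 without mitochondrial and ribosomal genes, 0.0884 with the mean over cells, 0.0855 with the mitochondrial limit, 0.0282 without the 5% and 0.0885 with the WT cells that carried an Xist but no Y-linked UMI. In rod-like cells it was 0.17 with size factors, 0.17 with the mean over cells, 0.0417 with the mitochondrial limit, 0.17 without the 5% and 0.19 with the Xist cells, and it turned to -0.13 with at least 1000 genes. In rod bipolar-like cells thinning gave -0.0534. In cluster 3 it was 0.49 with the mean over cells, 0.46 with thinning, which moved the median of all genes by 0.13, 0.0882 with at least 1000 genes, 0.087 with the mitochondrial limit, 0.27 without the 5% and 0.12 with the Xist cells. In cone-like cells it was 0.0493 with size factors, 0.0428 without mitochondrial and ribosomal genes and -0.0239 with the Xist cells. A percentage that stands alone after a count is the share called among the ratios of all genes under that setting. The 20 calls higher (9.67%) became 52 with the mean over cells (12.2%), 36 with thinning (10.7%), 7 with at least 1000 genes (9.09%), 10 with the mitochondrial limit (9.15%), 35 without the 5% (9.43%) and 44 at 1.1-fold (21.2% of the ratios, beside 11.7% over all genes). The 4 calls lower (11.4%) became 7 with thinning (9.24%), 9 with at least 1000 genes (10.5%), 7 with the mitochondrial limit (11.2%) and 23 at 1.1-fold (11.1% of the ratios, beside 13.4% over all genes). The causes were not tested.

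Of 922 alternative ratios of single called genes, 737 were still called and 3 turned in sign, namely Cox7b for TMB (-0.00829) and Atp5k for rd10-vehicle (-0.22) in rod-like cells with at least 1000 genes, and Atp5o for rd10-vehicle in endothelial-like cells with thinning (0.0809). The ratio of rod bipolar-like to MG-like sums moved to 2.03 and 2.05 for WT without mitochondrial and ribosomal genes and with the mitochondrial limit, and to 1.89 and 1.95 for rd10-TMB with thinning and with the mitochondrial limit. With fewer than 100 UMIs, 6 of the 47 genes had no ratio in clusters 2, 3 and 4.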

Other observations

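The unnamed cluster 18, with 3, 23 and 6 cells in WT, rd10-vehicle and rd10-TMB and led by Crhbp, Gpx3 and Fbln1, held 2 of the rare complex IV isoforms. Cox6b2 had 191 CPM there over all libraries (149.9 to 239) and made up 33.6% of the subunit 6B UMIs (27.5 to 40.2%). Cox8b had 83.8 CPM (57.7 to 118) and made up 6.88% of the subunit 8 UMIs (4.78 to 9.52%). In the RPE-like cluster 15, Atp5g1 gave 53.5% of the subunit c UMIs (48.1 to 58.9%), close to its share in cone-like cells, and in the microglia-like cluster 13 Atp5g2 gave 56.8% (51.6 to 61.9%). Cox6a2, the muscle form of subunit 6A, had 27 of its 60 UMIs in the amacrine-like cluster 5 (11.1 CPM, 7.30 to 16.1) and 14 in microglia-like cells (24.5 CPM, 13.4 to 41.2).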
